A study of Mus musculus with 8 samples.

Results

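Accessible chromatin was read out at 10 genes of the focal adhesion kinase pathway in mouse squamous cell carcinoma (SCC) cells. The genes were *Ptk2*, which encodes FAK, its relative *Ptk2b* (Pyk2), the Src family kinases *Src*, *Yes1* and *Fyn*, the Cas scaffolds *Bcar1* (p130Cas), *Nedd9*, *Efs* and *Cass4*, and the adaptor *Pxn* (paxillin). A region was counted to a gene when it overlapped the gene body or the 10 kb upstream of it. By this rule 75 of 69399 regions belonged to the 10 genes. The set was chosen by gene name, but with one measured value in view, since an intronic *Cass4* region was known to be called in FAK-WT libraries and not in FAK-kd libraries. Cass4 regions 3 and 5, numbered from the 5' end of the gene, both fit these words. That contrast at either region is therefore a description and was not tested. At the outer edge of the windows, the outermost region inside lay 9289 bp upstream of *Pxn* and was called in 1 library, and the closest region outside lay 10493 bp upstream of *Src* and was called in 4 libraries.

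FAK is a cytoplasmic tyrosine kinase that is recruited to integrins at focal adhesions, where it autophosphorylates and docks Src. The FAK and Src pair then phosphorylates Cas scaffolds and paxillin, and the phosphorylated Cas proteins bind Crk adaptors and pass the signal on to Rac and Rap GTPases that drive protrusion and migration. Pyk2 has the same domain layout as FAK and can take over part of its work in cells that lack FAK.

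The assay was ATAC-seq, in which Tn5 transposase cuts open DNA and leaves sequencing adapters in it. The SCC cells came from tumours raised with DMBA and TPA in FVB mice of genotype K14CreER FAKflox/flox, with Ha-Ras given as the driver gene. Loss of FAK was induced in the cultured cells by 4-hydroxytamoxifen. All 4 lines thus share the floxed alleles, the keratin promoter that drives Cre and the exposure to 4-hydroxytamoxifen. *FAK*-/- cells are the deleted line, whose treatment is labelled control. Counts between 2 named lines and limma differences here are of FAK-WT with another line, while calls are described across all 4 lines. The other lines carry a retroviral FAK construct: the wild-type protein (FAK-WT), a protein impaired in nuclear localization through R177A, R178A, R190A, R191A, R216A and R218A (FAK-nls), or a kinase-deficient protein with K454R (FAK-kd). The constructs were introduced into cells of 1 *FAK*-/- clone and selected with hygromycin, so an effect of a construct and of the selection or passage of a line cannot be told apart. Each line had 2 libraries, which the study calls biological replicates.

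The 8 lists held between 24402 and 53728 peaks, with the shortest lists in both FAK-nls libraries. The read depth of the libraries was not used here. Of 10 keratinocyte and SCC marker genes, only *Itga6* had a called region at a transcription start, in all 8 libraries. The starts of *Krt5*, *Krt14*, *Trp63*, *Epcam*, *Cdh1*, *Krt8*, *Krt18*, *Sfn* and *Itgb4* were called in none. Among the other marker lists, the starts of *Pdgfra* and *Pdgfrb* (2 of 5 fibroblast markers) and *Mitf* (1 of 3 melanocyte markers) were called in all 8 libraries, *Cd68* (1 of 5 immune markers) in 2, and *Cdh5* and *Kdr* (2 of 3 endothelial markers) in 2 and 1. By comparison, 39.7% of 21853 protein-coding genes had a called start in all 8 libraries and 48.0% had one in none. The calls at these starts thus did not carry the labelled keratinocyte origin beyond *Itga6*, and the libraries are named below by their labelled line only.

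The best-ranked regions called in both libraries of 1 line and neither of another were taken for display. The rank was that of the poorer call in the line where this stood best. Their sequences are shown with those of promoters at either end of the range of calls at a start. They were read from the GRCm38 build, which is mm10, as the central 300 bp of each region on the plus strand. Capitals mark exact matches, on either strand, to AP-1 (TGAGTCA), CRE (TGACGTCA) or ETS (AGGAAGT or CGGAAGT) letters. Regions are numbered within a gene from its 5' end.
Cass4 region 5 (intronic, called in FAK-WT, *FAK*-/- and FAK-nls, chr2:172411040-172411339): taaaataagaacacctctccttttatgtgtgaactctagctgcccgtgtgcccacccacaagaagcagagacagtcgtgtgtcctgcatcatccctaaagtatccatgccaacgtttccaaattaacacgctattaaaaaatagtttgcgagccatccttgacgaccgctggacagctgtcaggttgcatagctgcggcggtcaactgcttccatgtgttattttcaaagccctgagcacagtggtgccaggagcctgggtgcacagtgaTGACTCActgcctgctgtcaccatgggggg
Nedd9 region 11 (intronic, called in both FAK-kd and neither FAK-nls library, chr13:41321422-41321721): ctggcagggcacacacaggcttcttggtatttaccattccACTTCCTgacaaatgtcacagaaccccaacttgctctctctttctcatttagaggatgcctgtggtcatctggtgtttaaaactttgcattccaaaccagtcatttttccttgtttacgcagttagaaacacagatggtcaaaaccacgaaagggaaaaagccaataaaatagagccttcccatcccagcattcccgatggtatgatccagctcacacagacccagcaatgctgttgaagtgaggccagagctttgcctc
Efs region 1 (upstream, called in every line but FAK-nls, chr14:54929987-54930286): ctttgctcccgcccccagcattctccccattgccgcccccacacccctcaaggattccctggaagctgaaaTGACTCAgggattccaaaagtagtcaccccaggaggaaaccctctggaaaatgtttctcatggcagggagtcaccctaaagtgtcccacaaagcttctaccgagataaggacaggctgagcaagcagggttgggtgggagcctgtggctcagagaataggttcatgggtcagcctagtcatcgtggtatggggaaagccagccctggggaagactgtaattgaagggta
Cass4 region 3 (intronic, called in FAK-WT and *FAK*-/- only, chr2:172401150-172401449): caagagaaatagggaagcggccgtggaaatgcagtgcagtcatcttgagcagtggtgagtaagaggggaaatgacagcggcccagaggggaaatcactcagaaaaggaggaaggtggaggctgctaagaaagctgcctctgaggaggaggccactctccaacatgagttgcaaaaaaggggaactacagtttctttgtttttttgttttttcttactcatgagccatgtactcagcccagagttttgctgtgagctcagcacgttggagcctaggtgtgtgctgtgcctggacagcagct
Nedd9 promoter (RefSeq, minus strand, under a start region called in all 8 libraries, chr13:41358952-41359251): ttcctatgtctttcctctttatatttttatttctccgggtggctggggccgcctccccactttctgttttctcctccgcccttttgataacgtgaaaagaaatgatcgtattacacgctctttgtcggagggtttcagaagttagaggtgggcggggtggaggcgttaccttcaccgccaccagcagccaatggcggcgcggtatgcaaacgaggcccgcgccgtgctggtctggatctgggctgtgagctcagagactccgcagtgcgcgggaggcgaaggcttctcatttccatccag
Efs promoter (RefSeq, minus strand, with no called region, chr14:54926739-54927038): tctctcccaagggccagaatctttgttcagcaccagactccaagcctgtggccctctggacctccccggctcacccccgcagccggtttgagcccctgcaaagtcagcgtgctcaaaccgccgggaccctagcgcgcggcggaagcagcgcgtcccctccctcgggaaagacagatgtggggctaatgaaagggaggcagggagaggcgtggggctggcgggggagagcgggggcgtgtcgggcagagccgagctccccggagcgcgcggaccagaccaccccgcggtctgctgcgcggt
The AP-1 match of the *Cass4* region 5 began at position 172411310 and that of the *Efs* region at position 54930058 of their chromosomes. RefSeq promoters, which run from 250 bases before to 50 bases after a start, were matched for 7 of the 10 genes, namely *Src*, *Cass4*, *Yes1*, *Bcar1*, *Fyn*, *Nedd9* and *Efs*.

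Most of the accessible chromatin at these genes lay inside introns. Of the 75 regions, 54 were intronic, 11 covered the start of a protein-coding transcript, 8 lay upstream, and of the remaining 2, 1 overlapped a coding exon and 1 an exon of a noncoding transcript. Regions were sorted in the order of start, exon, intron and upstream, and in all 7 of the 75 overlapped a coding exon, 6 of them start regions. *Ptk2b* had 13 regions, *Pxn* 12, *Nedd9* and *Fyn* 11 each, *Ptk2* 9, *Src* 6, *Bcar1* and *Cass4* 5 each, *Yes1* 2 and *Efs* 1. Of the 75, 26 were called in all 8 libraries (34.7%, against 25.8% of all regions), 14 in 1 library (18.7%, against 28.6%), and 15 in both libraries of 1 line and neither library of another (20%, against 22.8%). The last share was close to that of all regions. Each call carries a rank, given here as a percentile of the library's own peaks by −log10 p, where a higher percentile is a stronger peak. A percentile depends on the length of the list, so that a peak of the same rank stands lower in the short FAK-nls lists.

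**Figure D1:**
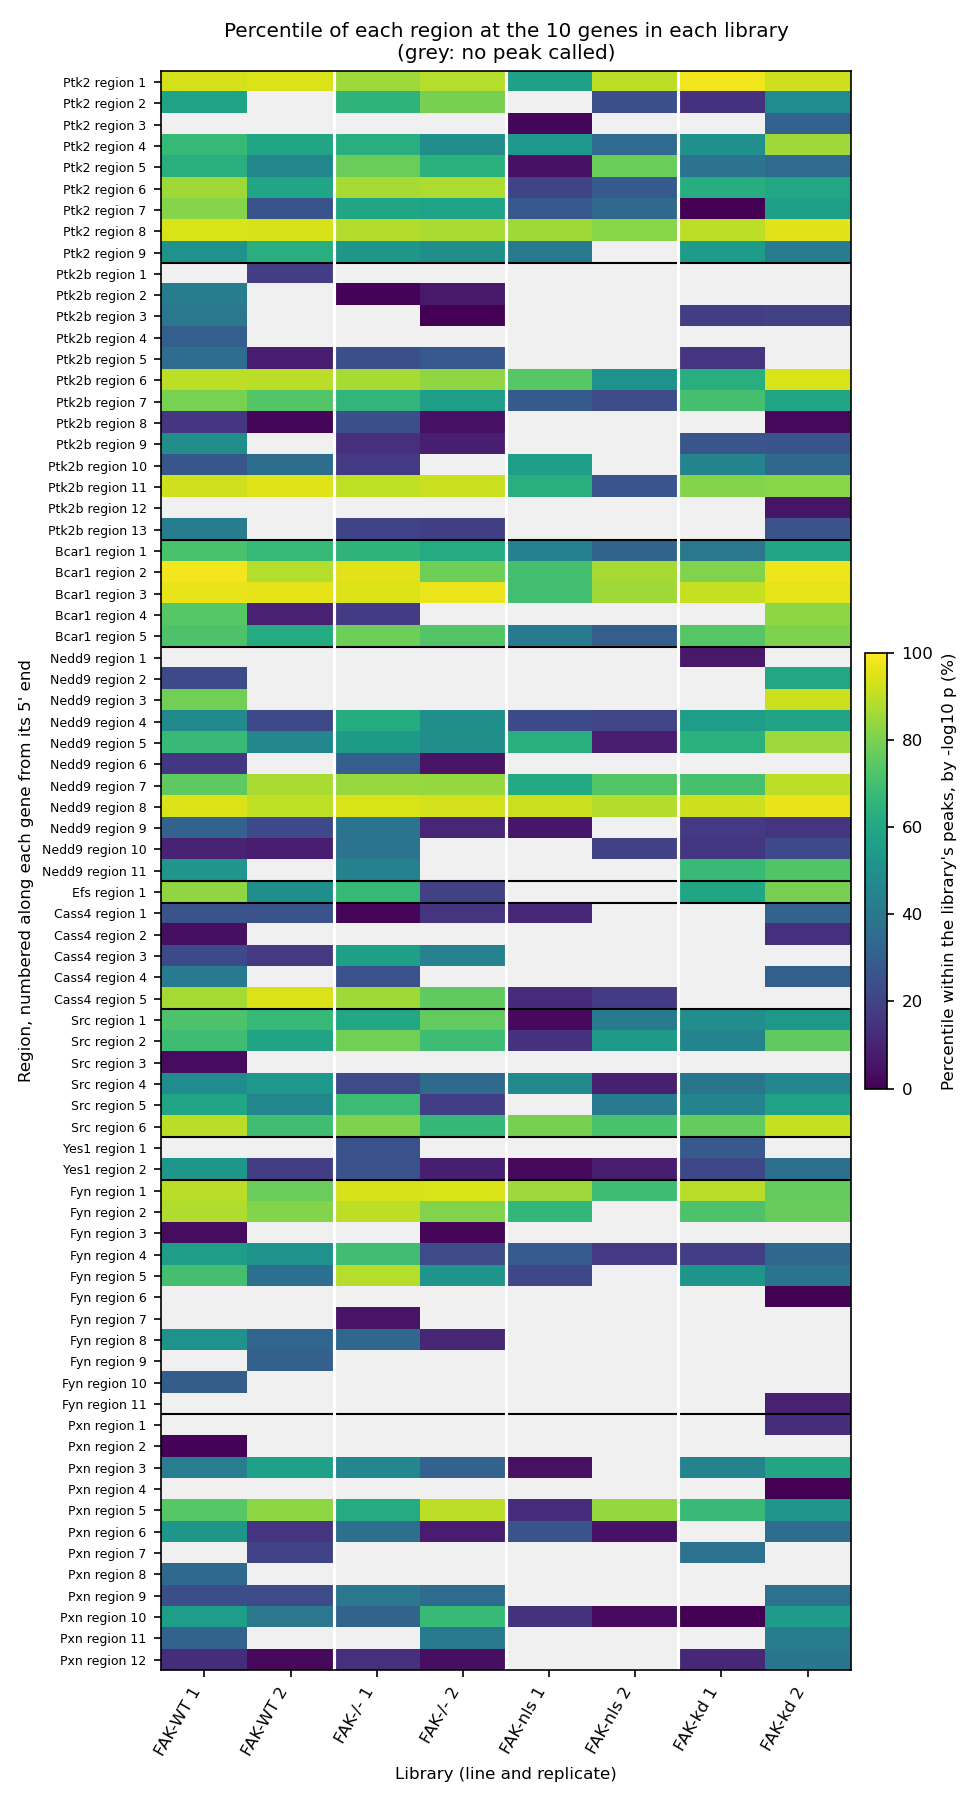
The 75 regions of the 10 genes (vertical axis, in gene order) by the 8 libraries (horizontal axis), coloured by percentile of the region's strongest peak within the library (percent), with grey where no peak was called. Bands that run across all libraries are the 26 regions called in all 8, and the FAK-nls columns hold the most grey, with 36 and 31 regions called.

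The longest list gave the most calls at the 10 genes and the 2 shortest gave the fewest. In FAK-WT libraries 63 and 48 of the 75 regions were called, in *FAK*-/- libraries 54 and 50, in FAK-nls libraries 36 and 31 and in FAK-kd libraries 44 and 57. These shares ran from 41.3% to 84.0%, and in each library they lay above the share of all 69399 regions called there, which ran from 34.9% to 77.0%. When only the 24383 strongest peaks of each library were kept, the members' calls were 31 and 29 in FAK-WT, 33 and 33 in *FAK*-/-, 36 and 31 in FAK-nls and 33 and 31 in FAK-kd. This number was set by the shortest list, so both FAK-nls lists stayed almost whole. All 8 libraries then lay between 29 and 36 regions (38.7% to 48.0%), against 34.9% to 35.1% of all regions.

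**Figure D2:**
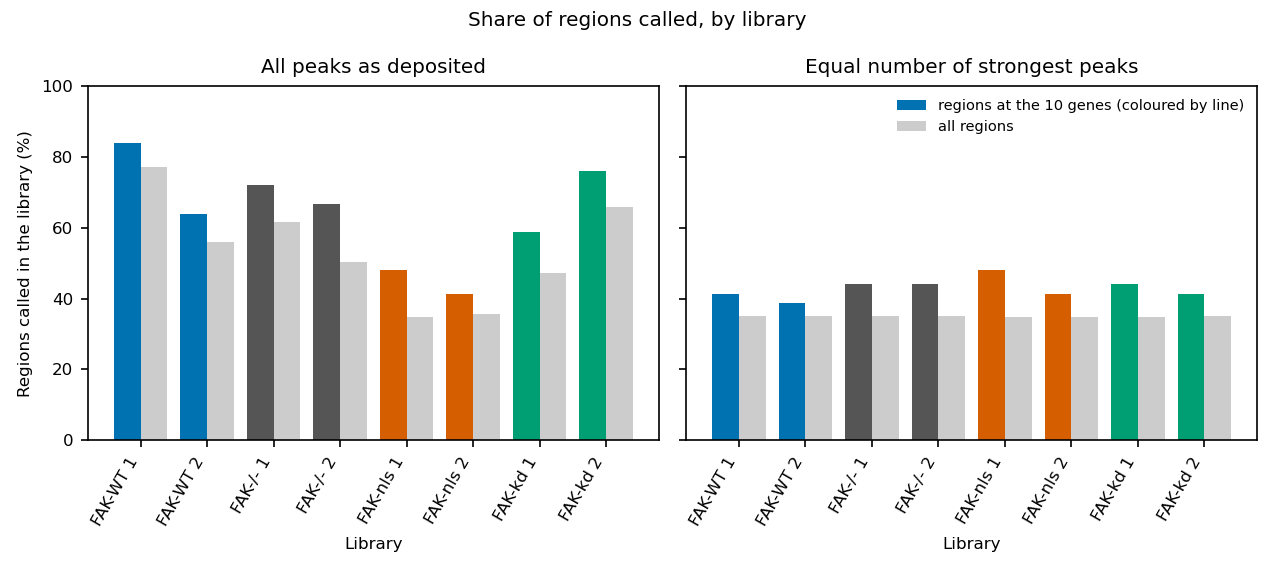
Share of regions called in each library (percent), for the 75 regions of the 10 genes (bars coloured by line) and for all regions (grey bars), with all deposited peaks (left) and with an equal number of strongest peaks (right). The FAK-nls libraries are lowest on the left at 48.0% and 41.3%, and on the right all libraries lie between 38.7% and 48.0%.

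The chromatin of *Ptk2*, the deleted gene, was open at its start in every line. The start region (chr15:73422582-73423686, 1105 bp, which also covers the start of the divergent noncoding gene *Gm49066*) stood at percentiles 93.6 and 94.4 in FAK-WT, 85.4 and 88.8 in *FAK*-/-, 57.1 and 90.2 in FAK-nls and 97.8 and 92.2 in FAK-kd. Its fold enrichment over local background was 5.81 and 5.54, 5.02 and 5.00, 3.93 and 5.32, and 6.04 and 5.67 in the same order. The *FAK*-/- values were thus below those of FAK-WT and within the range of FAK-nls, and FAK-nls replicate 1 was the lowest of all. A region over internal starts (Ptk2 region 9, chr15:73242943-73243575) was called in every library but FAK-nls replicate 2, at percentiles 40.5 to 62.8. Of the 9 *Ptk2* regions 6 were called in all 8 libraries, against 25.8% of all regions. Among the 6 was an intronic region (Ptk2 region 8, chr15:73246318-73247156) at percentiles 82.3 to 95.7. No peak of any library overlapped any of the 40 distinct coding segments of *Ptk2*, which means that neither the deletion nor the construct can be checked from the calls. Per library, 7 to 9 of the 9 regions were called, 8 and 8 of them in *FAK*-/-. No *Ptk2* region was called in both libraries of 1 line and neither of another, against 22.8% of all regions.

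At *Ptk2b*, 6 of 13 regions were called in both libraries of 1 line and neither of another, against 22.8% of all regions, and the difference from *Ptk2* was not tested. All 6 had no call in FAK-nls, as did 90.4% of all regions that differed between lines in this way. The *Ptk2b* start region (Ptk2b region 2, chr14:66280396-66281184) was called in FAK-WT replicate 1 at percentile 42.1 and in both *FAK*-/- libraries at 1.0 and 6.7, and in no FAK-nls or FAK-kd library. It was therefore a weak peak in the line in which it was seen in both libraries. An intronic region (Ptk2b region 5, chr14:66261551-66262120) was called at percentiles 35.6 and 7.8 in FAK-WT, 24.3 and 27.5 in *FAK*-/- and 14.9 in FAK-kd replicate 1. The strongest *Ptk2b* regions were intronic and shared by all lines: Ptk2b region 11 (chr14:66220907-66221452) stood at 92.8 and 95.0 in FAK-WT, 90.4 and 91.9 in *FAK*-/-, 62.5 and 26.4 in FAK-nls and 81.5 and 82.3 in FAK-kd. There the FAK-nls libraries were the lowest and did not overlap those of any other line. The other 4 regions that differed between lines (Ptk2b regions 3, 8, 9 and 13) were called at percentiles of at most 49.5. With equal numbers of peaks no line kept both of its calls at any of the 6, and only Ptk2b region 9 kept a call, in 1 FAK-kd library. With a minimum −log10 q of 3, Ptk2b regions 2, 3, 5, 9 and 13 kept 1 FAK-WT call each and no call in another line.

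The 3 Src family members had starts that differed in strength. *Fyn* encodes a Src family kinase that binds FAK and Cas proteins, and its start region (Fyn region 1, chr10:39369373-39370666) was called in all 8 libraries, at percentiles 89.5 and 77.2 in FAK-WT, 94.0 and 94.3 in *FAK*-/-, 85.3 and 69.1 in FAK-nls and 89.1 and 76.3 in FAK-kd. The *FAK*-/- percentiles were the highest, while fold enrichment, at 6.32 and 5.76 in *FAK*-/- and 5.95 and 5.03 in FAK-WT, overlapped. *Src* itself had called regions at an internal start (Src region 6, chr2:157457057-157457910) in all 8 libraries, at percentiles 89.5 and 69.3 in FAK-WT, 80.6 and 66.7 in *FAK*-/-, 79.5 and 71.2 in FAK-nls and 76.2 and 91.1 in FAK-kd. These ranges overlapped in all 4 lines, and no peak covered the *Src* promoter that RefSeq gives. The *Yes1* start (Yes1 region 2, chr5:32610651-32611900, shared with the antisense gene *Gm15614*) was also called in all 8 libraries, but low, at 52.9 and 18.3 in FAK-WT, 25.7 and 8.5 in *FAK*-/-, 2.1 and 8.0 in FAK-nls and 21.5 and 37.0 in FAK-kd. Fold enrichment there was 4.85 and 3.60 in FAK-WT, 3.67 and 3.25 in *FAK*-/-, 3.30 and 3.55 in FAK-nls and 3.52 and 4.08 in FAK-kd, so that FAK-nls overlapped *FAK*-/- and FAK-kd. With equal numbers of peaks only the FAK-nls libraries kept the call, but this cut left their short lists almost whole. The call it removed in FAK-WT replicate 1, at a fold enrichment of 4.85, was stronger than both FAK-nls calls.

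Within the Src family, 1 region, among the 11 of *Fyn*, was called in both libraries of some lines and in none of another, against 22.8% of all regions. Fyn region 8 (chr10:39505682-39506646), an intronic region, was called at percentiles 51.4 and 32.5 in FAK-WT and 33.3 and 10.7 in *FAK*-/-, and in no FAK-nls or FAK-kd library. Its fold enrichment was 5.11 and 4.05 in FAK-WT and 3.85 and 3.34 in *FAK*-/-, so the FAK-WT values were both higher. None of these 4 calls was among the strongest 24383 peaks. *Src* and *Yes1*, with 6 and 2 regions, had no region of this kind, and these numbers are small beside the share of 22.8%.

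Among the Cas scaffolds, *Nedd9* had the start with the most even strength, at a percentile of at least 88.4 in every library. *Nedd9* encodes a scaffold known for its part in cell migration and invasion of tumour cells, and its start region (Nedd9 region 8, chr13:41358269-41359357) stood at percentiles 94.6 and 90.6 in FAK-WT, 94.5 and 93.2 in *FAK*-/-, 91.8 and 88.4 in FAK-nls and 92.5 and 96.6 in FAK-kd. Its fold enrichment was 7.17 and 6.19 in FAK-WT, 6.06 and 5.71 in *FAK*-/-, 5.96 and 5.82 in FAK-nls and 6.05 and 7.52 in FAK-kd, so both FAK-WT values lay above those of *FAK*-/- and FAK-nls and within the range of FAK-kd. An intronic region near the 3' end (Nedd9 region 11, chr13:41321329-41321813) was called in FAK-WT replicate 1 at 52.3, in *FAK*-/- replicate 1 at 43.9 and in both FAK-kd libraries at 67.9 and 72.7, with fold enrichments of 5.13, 4.41, 5.28 and 6.47. FAK-kd was thus the line with both calls, and its values were the highest. With equal numbers of peaks both FAK-kd calls and the *FAK*-/- call remained and the FAK-WT call did not. Nedd9 region 6 (chr13:41401696-41402043) was called in FAK-WT replicate 1 at percentile 16.3 and in *FAK*-/- at 30.3 and 5.4, and in no other library. Nedd9 regions 2 and 3 (chr13:41444863-41445715 and chr13:41436685-41437357), also intronic, were called in FAK-WT replicate 1 and FAK-kd replicate 2 alone, with percentiles of 22.5 and 59.8 in the former region and 78.9 and 91.9 in the latter. These are the libraries with the longest lists, and 3 of the 75 regions (4.00%, with Cass4 region 2) had this pattern, against 3.58% of all regions.

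*Bcar1*, which encodes p130Cas, the prototype of the family, had 4 of its 5 regions called in all 8 libraries, against 25.8% of all regions, and its called start was an internal one (Bcar1 region 2, chr8:111731775-111732945), at percentiles 98.4 and 88.9 in FAK-WT, 95.4 and 77.9 in *FAK*-/-, 70.5 and 86.4 in FAK-nls and 81.0 and 97.4 in FAK-kd. Its fold enrichment was 7.15 and 4.47, 5.43 and 4.08, 4.47 and 5.29, and 4.30 and 7.13 in the same order, and all 4 lines overlapped. The RefSeq promoter at the 5' end of the gene had no called region. Bcar1 region 4 (chr8:111720095-111720550), over an exon of a noncoding transcript, was called in FAK-WT at 74.0 and 9.1, in *FAK*-/- replicate 1 at 17.2 and in FAK-kd replicate 2 at 83.0, and in no FAK-nls library.

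*Efs*, a small Cas family scaffold that binds Src kinases, had no called region at its start. Its only region (Efs region 1, chr14:54929846-54930426, 4010 bp upstream of the nearest *Efs* start and 2559 bp upstream of a start of *Il25*) was called at percentiles 83.3 and 49.8 in FAK-WT, 67.1 and 19.5 in *FAK*-/- and 59.0 and 79.4 in FAK-kd, and in neither FAK-nls library. Fold enrichment was 6.55 and 4.18, 4.88 and 3.43, and 4.61 and 6.27 in that order. The 3 lines with calls overlapped. With equal numbers of peaks, both FAK-WT calls, both FAK-kd calls and 1 *FAK*-/- call remained, and FAK-nls still had none. The same pattern of calls, both libraries of the other 3 lines and neither FAK-nls library, held at 2 of the 75 regions (2.67%, the other being Pxn region 12) and at 4.12% of all regions.

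*Cass4*, which encodes the remaining Cas family scaffold, had no region called in all 8 libraries among its 5, against 25.8% of all regions. *Efs*, with 1 region, was the only other gene without one. The *Cass4* start region (Cass4 region 2, chr2:172393684-172394059) was called in FAK-WT replicate 1 at percentile 4.1 and in FAK-kd replicate 2 at 13.4 and in no other library. Cass4 region 3 (chr2:172401068-172401531), 7398 bp into the gene, was called in FAK-WT at 22.3 and 16.6 and in *FAK*-/- at 56.8 and 44.5, and in no FAK-nls or FAK-kd library. There the *FAK*-/- libraries were the higher pair, and with equal numbers of peaks only they kept their calls. This region and Fyn region 8 were the 2 of 75 (2.67%) called in FAK-WT and *FAK*-/- and in none of FAK-nls and FAK-kd, a pattern held by 0.620% of all regions. Cass4 region 3 also fits the contrast that was in view when the genes were chosen. The share is therefore a description and was not tested.

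Regions 3 and 5 of *Cass4* both fit the intronic region named in the choice of genes, and region 5 was taken as that region here. Cass4 region 5 (chr2:172410763-172411616, 854 bp, 17288 bp downstream of the nearest *Cass4* start) was not particular to cells with wild-type FAK. It was called at percentiles 86.7 and 94.7 in FAK-WT, 85.9 and 75.5 in *FAK*-/- and 12 and 17.3 in FAK-nls, and in neither FAK-kd library. Fold enrichment was 6.15 and 6.43 in FAK-WT, 5.70 and 4.92 in *FAK*-/- and 3.54 and 3.81 in FAK-nls, and the −log10 p was 16.1 and 15.2, 12.8 and 9.09, and 4.21 and 4.62. The 3 lines did not overlap in fold enrichment: FAK-WT was highest, *FAK*-/- next and FAK-nls lowest. The peaks were 512 and 429 bp long in FAK-WT, 390 and 392 bp in *FAK*-/- and 624 and 284 bp in FAK-nls. The nearest peak of FAK-kd replicate 1 lay 28185 bp away, beyond the gene, and that of FAK-kd replicate 2 lay 1580 bp away, in Cass4 region 4.

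The pattern of Cass4 region 5, both libraries of FAK-WT, *FAK*-/- and FAK-nls and neither FAK-kd library, held at 42 of all regions (0.0605%) and at 1 of the 75 (1.33%). Among those 42, the *Cass4* region ranked 1 by its lower FAK-WT percentile, 86.7, while the next region stood at 77.2 and the median at 36.1. Of the 41 others, those most like it by mean absolute difference in percentile over the 6 libraries were a region inside *Micu2* (chr14:57945629-57946291, 18.1 points), a region 409581 bp from the nearest start, that of *Adra2a* (chr19:54454293-54455390, 22.8 points), and a region 799 bp upstream of a *Lrfn5* start (chr12:61522792-61523507, 24.8 points). The *Cass4* region kept both FAK-WT calls with equal numbers of peaks, with a minimum −log10 q of 3, with peaks set to 500 bp, and with 50% of the region required to be covered. Its calls in FAK-nls were lost at the minimum −log10 q of 3, and both its calls in *FAK*-/- and 1 in FAK-nls at the required cover. Since the region entered through this contrast, these values describe it and support no statement on FAK-kd.

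**Figure D3:**
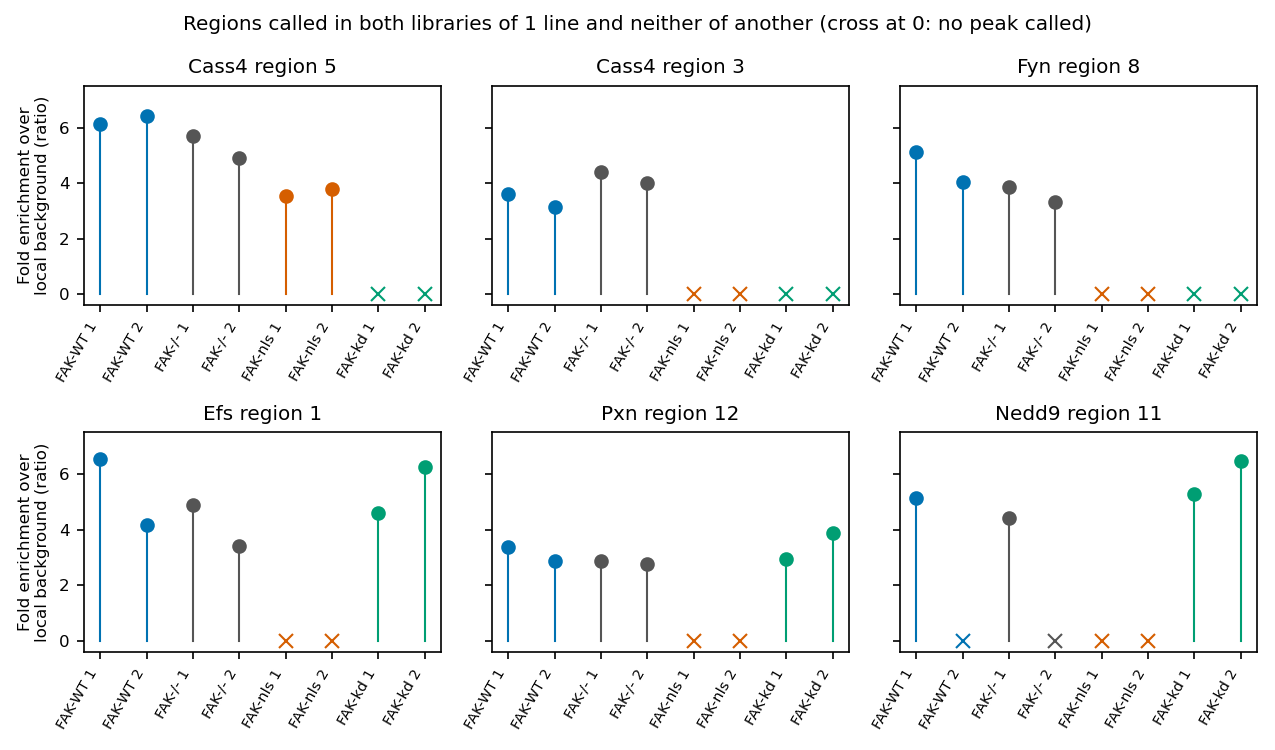
Fold enrichment over local background (ratio, vertical axis) in each of the 8 libraries (horizontal axis, coloured by line) at 6 regions called in both libraries of 1 line and neither of another, with a cross at 0 where no peak was called. Cass4 region 5 falls from 6.15 and 6.43 in FAK-WT to 3.54 and 3.81 in FAK-nls and has no FAK-kd call, while Efs region 1 and Pxn region 12 lack only FAK-nls calls.

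*Pxn* encodes paxillin, the adaptor that holds FAK and vinculin at focal adhesions, and its start was accessible at a moderate level. The start region (Pxn region 3, chr5:115506428-115507032) was called in 7 libraries, at percentiles 42.6 and 57.4 in FAK-WT, 46.3 and 31.6 in *FAK*-/-, 4.5 in FAK-nls replicate 1 and 45.1 and 58.6 in FAK-kd. The only library without the call was FAK-nls replicate 2. Pxn region 12 (chr5:115543336-115544352), which covers an internal start, was called at 13.0 and 2.6 in FAK-WT, 13.8 and 4.2 in *FAK*-/- and 11.6 and 38.8 in FAK-kd and in neither FAK-nls library. All of these but the call in FAK-kd replicate 2 were weak, and none was among the strongest 24383 peaks. Pxn region 9 (chr5:115531652-115532319), an intronic region, was called at 23.9 and 22.8 in FAK-WT, 39.8 and 35.5 in *FAK*-/- and 37.2 in FAK-kd replicate 2. With a minimum −log10 q of 3 it kept no FAK-WT call and 1 call each in *FAK*-/- and FAK-kd.

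Which of these differences set FAK-WT apart from each other line was asked by counting regions called in both libraries of 1 line and neither of the other. Against *FAK*-/-, 0 of the 75 regions were called in FAK-WT only (4.89% of all regions) and 0 in *FAK*-/- only (1.18% of all regions). Against FAK-nls, 8 of the 75 (10.7%, against 15.3% of all regions) were called in FAK-WT only, namely Cass4 region 3, Pxn regions 9 and 12, Bcar1 region 4, Fyn region 8, Efs region 1 and Ptk2b regions 5 and 8. In FAK-nls only, 0 regions were called, against 0.248% of all regions. Against FAK-kd, 3 of the 75 (4.00%, against 4.33%) were called in FAK-WT only, namely Cass4 regions 3 and 5 and Fyn region 8, and 0 in FAK-kd only, against 0.830% of all regions. Cass4 region 5 was taken as the region known when the genes were chosen. Without it 2 of 74 (2.70%) were called in FAK-WT only. Cass4 region 3 fits the same description, so this share is not free of the choice either. Of the 3, only Fyn region 8 is at another gene. These counts are small and moved with the libraries used. Without FAK-WT replicate 2, where 1 FAK-WT call was enough, 8, 25 and 11 regions were called in FAK-WT only against *FAK*-/-, FAK-nls and FAK-kd, and with 50% of a region required to be covered the count against *FAK*-/- was 5. The shares of all regions given above hold for the main counting only, so these counts cannot be set against them.

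Equal numbers of peaks changed these counts. The cut left both FAK-nls lists almost whole and shortened the others more, so a count in FAK-nls only can hold weak FAK-nls calls. Of the 50 member regions that then held a peak, 1 (2.00%, against 4.92% of 40182 regions) was called in FAK-WT only against FAK-nls, which was Efs region 1, and 3 (6.0%, against 4.29%) in FAK-nls only, which were Yes1 region 2, Pxn region 6 and Nedd9 region 4. Against FAK-kd, 2 regions (4.00%, against 3.11%) were called in FAK-WT only, which were Cass4 region 5 and Fyn region 4, and 2 (4.00%, against 2.65%) in FAK-kd only, which were Nedd9 regions 4 and 11. Without Cass4 region 5 the former count was 1 of 49 (2.04%). Against *FAK*-/-, 0 regions (3.46% of all) were called in FAK-WT only and 2 (4.00%, against 3.31%) in *FAK*-/- only, which were Cass4 region 3 and Nedd9 region 4. Efs region 1 was thus called in FAK-WT only against FAK-nls in both countings, a name picked out after its values were seen. This form of the count, with regions left as merged from all peaks, was added after the data had been seen.

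The strength of the 26 regions called in all 8 libraries was compared by limma on quantile-normalized log2 fold enrichment, fitted over all 17917 such regions with Benjamini-Hochberg adjustment. No member region passed an adjusted p of 0.05 against any line. Over all 17917 regions, 1 passed against *FAK*-/- (0.00558%), 0 against FAK-nls (0%) and 2 against FAK-kd (0.0112%). At an unadjusted p under 0.05 there were 1 of 26 against *FAK*-/- (6.33% of all regions), 3 of 26 against FAK-nls (15.4% of all regions) and 0 of 26 against FAK-kd (5.36% of all regions). With pileup in place of fold enrichment 1 of 26 passed against FAK-nls, where 1.88% of all regions did. With normal scores of the rank 3 of 26 passed, where 8.14% of all regions did, 1440 of them higher in FAK-WT and 18 lower.

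Against *FAK*-/-, fold enrichment was higher in FAK-WT at 14 and lower at 12 of the 26 regions, with a median difference of 0.012 on the log2 scale (-0.005 over all regions, of which 48.9% were higher). The largest difference was at an intronic *Nedd9* region (Nedd9 region 4, chr13:41431723-41432266), with fold enrichments of 4.41 and 3.68 in FAK-WT and 5.12 and 4.46 in *FAK*-/-. The *FAK*-/- values were both higher, by 0.34 ± 0.14 (SE) on the log2 scale, with a limma adjusted p of 0.712.

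Against FAK-nls, 17 of the 26 were higher in FAK-WT, with a median difference of 0.07, where 48.3% of all regions were higher and their median was -0.011. The largest differences were at intronic regions of the FAK family genes. Ptk2 region 6 (chr15:73318552-73319206) had fold enrichments of 7.39 and 4.92 in FAK-WT and 3.76 and 4.09 in FAK-nls, a difference of 0.48 ± 0.15 (SE, limma adjusted p = 0.168), which was 0.293 without FAK-WT replicate 1. Ptk2b region 7 (chr14:66241290-66242089) had 6.48 and 5.20 in FAK-WT and 3.88 and 4.00 in FAK-nls, a difference of 0.41 ± 0.15 (limma adjusted p = 0.194). In Ptk2b region 11, 6.36 and 6.49 stood against 4.65 and 3.99, a difference of 0.41 ± 0.16 (limma adjusted p = 0.226), which was 0.248 without FAK-nls replicate 2. At all 3 the lines did not overlap, and none passed the threshold. By normal scores of the rank all 3 passed, with adjusted p of 0.0438, 0.0386 and 0.0136 in limma, and by pileup Ptk2b region 11 passed with an adjusted p of 0.046 in limma. By pileup the difference at Ptk2 region 6 was 0.245 (limma adjusted p = 0.622) and that at Ptk2b region 7 was 0.362 (limma adjusted p = 0.432). The FAK-nls lists were the shortest of the 8, and the part of list length in the rank scores was not tested.

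Against FAK-kd, 18 of the 26 were higher in FAK-WT, with a median difference of 0.042 (-0.007 over all regions, of which 47.8% were higher). The largest difference was at an intronic *Ptk2* region (Ptk2 region 7, chr15:73267578-73268678), with fold enrichments of 6.48 and 3.78 in FAK-WT and 2.97 and 4.70 in FAK-kd. The lines overlapped, and the difference of 0.37 ± 0.19 (SE) had a limma adjusted p of 0.928 and fell to 0.086 without FAK-WT replicate 1. The median standard error of a difference was 0.15 on the log2 scale, and 2 libraries a line limit what can be detected.

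**Figure D4:**
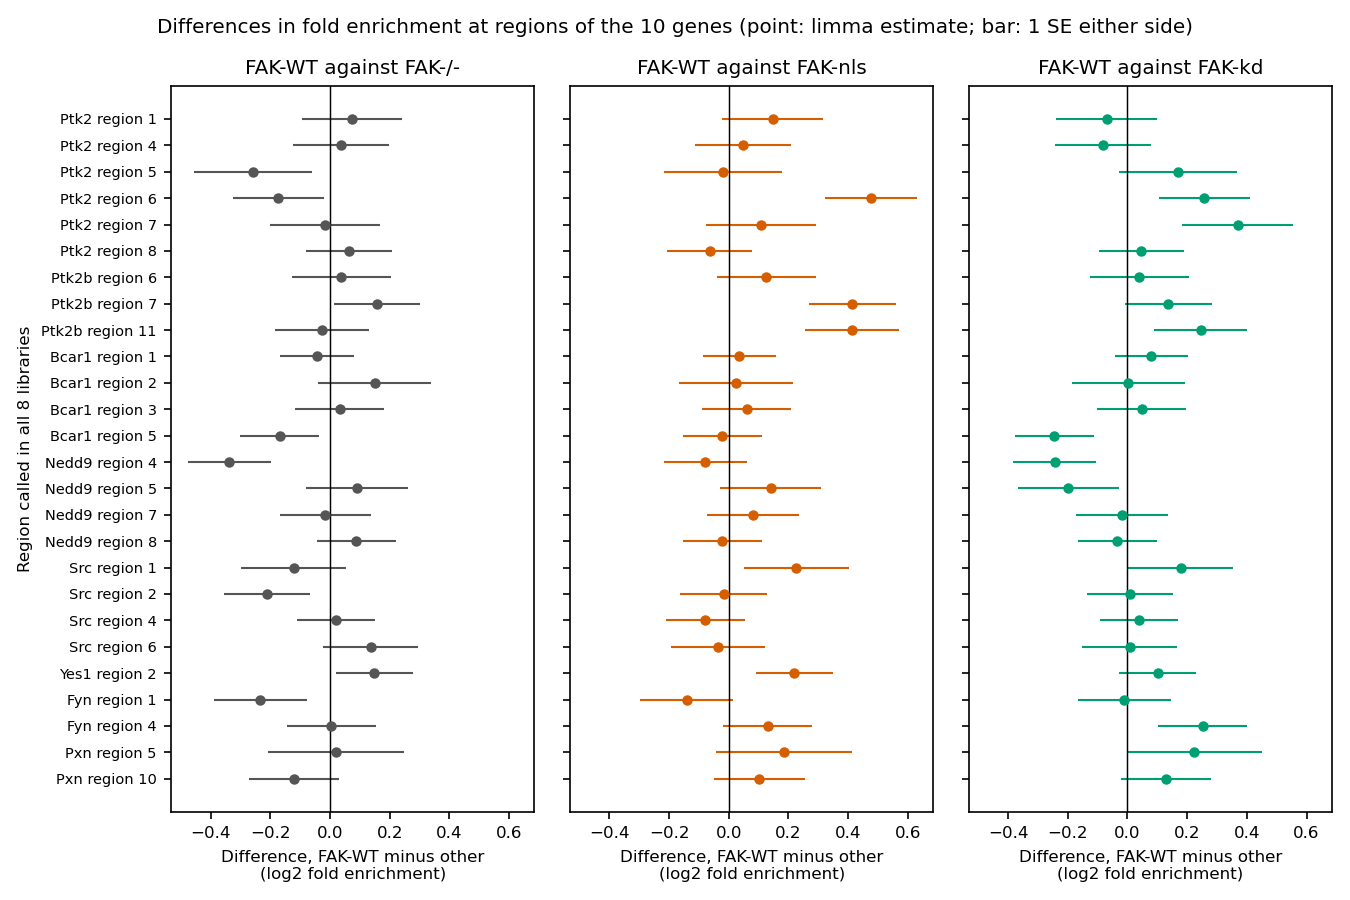
Difference in quantile-normalized log2 fold enrichment, FAK-WT minus the other line (horizontal axis, points with 1 SE to either side), at the 26 regions called in all 8 libraries (vertical axis), 1 panel per line. Points lie on both sides of 0 in each panel, and Ptk2 region 6 and Ptk2b regions 7 and 11 lie farthest to the right against FAK-nls, at 0.48, 0.41 and 0.41.

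The other genes of the pathway were read in the same way from a fixed list of 39 genes, of which 38 were matched in the annotation, with 281 regions. Of these regions, 84 (29.9%) were called in all 8 libraries, against 25.8% of all regions. In FAK-WT only, 10 (3.56%) were called against *FAK*-/-, 42 (14.9%) against FAK-nls and 11 (3.91%) against FAK-kd, against 4.89%, 15.3% and 4.33% of all regions. In the other line only, 6 (2.14%), 2 (0.712%) and 3 (1.07%) were called, against 1.18%, 0.248% and 0.830% of all regions. In limma 0 of the 84 passed against each line, with 6, 9 and 4 at an unadjusted p under 0.05 against *FAK*-/-, FAK-nls and FAK-kd, where 6.33%, 15.4% and 5.36% of all regions stood. By role, 3 of 20 regions at the other Src family kinases were called in all 8 libraries, 6 of 18 at negative regulators such as *Csk*, the kinase that switches off Src family members, 32 of 112 at adaptors and exchange factors such as *Bcar3*, which binds p130Cas, 22 of 61 at partners of Cas and paxillin such as *Vcl* (vinculin), and 21 of 70 at effectors of FAK. In FAK-WT only against FAK-nls, 2, 4, 19, 8 and 9 of these regions were called in the same order. Of the other Src family kinases, *Lyn*, *Lck*, *Fgr* and *Blk* had no called start in any library, and *Frk* had one in all 8. None of the 38 genes had a region with the calls of Cass4 region 5, a pattern held by only 0.0605% of all regions.

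The central 300 bp of each region was searched for the same letters. AP-1 letters were in 17 of the 75 regions (22.7%, against 28.7% of all regions), ETS letters in 10 (13.3%, against 10.9%) and CRE letters in 0 (against 0.719%). Of the 15 regions that differed between lines, 3 held AP-1 letters, among them Cass4 region 5 and Efs region 1, where 34.7% of all such regions did. Of the 26 regions called in all 8 libraries 4 held them (15.4%, against 26.1%). Of all RefSeq promoters 5.20% held AP-1, 15.1% ETS and 1.79% CRE letters, and neither promoter shown held any. A match to these letters is a description of the sequence and not of a bound factor.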

How the data were processed

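ATAC-seq peak lists of 8 libraries, 2 from each of 4 lines, were grouped by the sample labels. Per the study's methods, the authors aligned reads to mm10 with the bcbio pipeline and called broad peaks in each library with MACS2 (2.1.1 in the submitters' processing notes) at a q-value threshold of 0.05. The handling of duplicate reads is not given in the sources used here. For each peak the deposited values were its length, the pileup (coverage signal), the ratio of pileup to local background (fold enrichment), and the significance as −log10 p-value and as −log10 q-value. The deposited lists reached down to a −log10 q of 1.00, which is below the stated threshold. Read counts and depths were not used here, so no count test was run, and no scaling between libraries is given for the deposited values.

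Peaks of the autosomes (1 to 19), X and Y entered, which left out 15 to 25 per library, and were merged into regions where they overlapped by at least 1 bp. A region's value in a library was that of its peak with the highest −log10 p. Gene bodies, starts and exons came from GENCODE M21 on GRCm38.p6, and 0 peaks lay beyond a chromosome end of that build. The highest share of identical peaks between any 2 lists was 0.0361%. Log2 fold enrichment of the 17917 regions called in all 8 libraries was quantile normalized and tested two-sided with limma 3.58.1 (R 4.3.3) in 1 fit of all lines, with an intensity trend, 4 residual degrees of freedom per region and an adjusted p of 0.05 as the threshold. The fit was tested on simulated data. The p-values measure only the spread between these libraries. Other steps used Python 3.11.15 and pandas 2.3.3.

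The members and lists were chosen with earlier results of these data known. The rule for regions described singly took each member's start region, every region called in both libraries of 1 line and neither of another, the region past the limma threshold or with the largest difference in each comparison, the intronic *Cass4* region, and the 3 other regions most like it. Of the second kind, 4 *Ptk2b* regions are given by their highest percentile only. Outside the rule, Ptk2 regions 3 and 8, Nedd9 regions 2 and 3, and Ptk2b regions 7 and 11 were named after their values were seen. Alternatives were median-centring, pileup, rank scores, a length-weighted mean, regions of 1 peak per library, limma without the trend, a minimum −log10 q of 3, 50% cover, peaks of 500 bp, the 24383 strongest peaks of each library, a 2 kb window, a replicate block and leaving out each library.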

Additional observations from a re-analysis of the deposited data

How the results depend on the processing

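None of the 5 limma differences named at single regions changed sign under the alternatives in which they could be fitted. With a minimum −log10 q of 3 none of the 5 was called in all 8 libraries, so none was compared there. Equal numbers of peaks, 50% cover and peaks of 500 bp were not run in limma. Of the 15 regions that differed between lines, the order of 2 lines by number of calls turned round at 5 with a minimum −log10 q of 3 (Ptk2b regions 2, 3, 9 and 13 and Pxn region 9), at 1 with 50% cover (Ptk2b region 5), and at 0 with equal numbers of peaks or peaks of 500 bp. A region left with no call in any line cannot turn round. With equal numbers of peaks these were Ptk2b regions 2, 3, 5, 8 and 13, Nedd9 region 6, Fyn region 8 and Pxn region 12. With the minimum −log10 q of 3 they were Ptk2b region 8 and Nedd9 region 6. Regions at the members called in all 8 libraries went from 26 to 9 with a minimum −log10 q of 3 and to 9 with 50% cover. Over all regions this number went from 17917 to 9309 with the minimum q. For the counts that follow, shares of all regions are given above only for the main counting and for equal numbers of peaks. The other counts describe the members alone. With that minimum q, 2 regions were called in FAK-WT only and 1 in *FAK*-/- only in that comparison, and 1 in FAK-WT only against FAK-kd. With 50% cover, 5 were called in FAK-WT only against *FAK*-/-, 15 against FAK-nls, and 1 in FAK-kd only, as also with peaks of 500 bp. With equal numbers of peaks, 1 was called in FAK-WT only against FAK-nls, and 2, 3 and 2 in *FAK*-/-, FAK-nls and FAK-kd only. Leaving out 1 library, counts in FAK-WT only ran from 0 to 8 (*FAK*-/-), 8 to 25 (FAK-nls) and 3 to 11 (FAK-kd), each highest without FAK-WT replicate 2. Counts in the other line only ran from 0 to 5 (highest without FAK-WT replicate 1), 0 to 1 (FAK-nls replicate 2) and 0 to 6 (FAK-kd replicate 1). A line with 1 library left needs 1 call in place of 2.

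In limma, pileup gave 98, 336 and 43 regions past the threshold against *FAK*-/-, FAK-nls and FAK-kd. Rank scores gave 0 against *FAK*-/- and 1458 against FAK-nls, median-centring gave 5 against *FAK*-/-, and the minimum q gave 0 against *FAK*-/- and 0 against FAK-kd. At the members, pileup gave 1 and rank scores 3 against FAK-nls. The cause was not tested. Leaving out 1 library, the counts ran from 0 to 1 against *FAK*-/- (0 without either library of FAK-WT or of *FAK*-/-), 0 to 3 against FAK-nls (3 without FAK-nls replicate 2) and 0 to 5 against FAK-kd (5 without FAK-nls replicate 1), where the lone library of a line is assumed to vary like the others. No member passed in any of these. Same-numbered libraries did not deviate together (correlations from -0.202 to 0.0555), and with a replicate block the counts were 1, 0 and 2, as without it. With the FAK-kd numbers crossed, chosen after seeing the data, they were also 1, 0 and 2. A region without a call may be open below the threshold, and read depth, which was not used here, limits every call.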

Other observations

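Regions seen in 1 library only were weak at these genes, and the strength of such regions elsewhere was not compared. There were 14 of them, 5 in FAK-WT replicate 1, 5 in FAK-kd replicate 2, 2 in FAK-WT replicate 2, and 1 each in *FAK*-/- replicate 1 and FAK-kd replicate 1, at percentiles from 0.1 to 34.3. *Fyn* held 5 of its 11 regions in this class and *Pxn* 4 of 12, against 28.6% of all regions.

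Of the 75 regions 1 was called in both mutant lines and in no FAK-WT or *FAK*-/- library, as were 0.245% of all regions. It was Ptk2 region 3 (chr15:73383037-73383777), an intronic region called in FAK-nls replicate 1 at percentile 1.4 and in FAK-kd replicate 2 at 31.3. Each mutant line had the call in 1 of its 2 libraries.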
